A study of Mus musculus with 12 samples.

Results

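The 38 genes described here carry the cellular response to low oxygen and the breakdown of glucose. They were taken by symbol from a table of 28004 genes, and all 38 were found in it. They fall into 4 subunits of the hypoxia-inducible factor (HIF), 3 regulators of HIF stability, 8 other HIF target genes, 3 glucose or lactate transporters, 15 glycolytic enzymes and 5 genes that regulate glycolysis or handle pyruvate. The rule goes by gene name and uses no measured value, but the genes were chosen with earlier results of these data known. Shares set beside those of all tested genes are therefore descriptive. Levels are in CPM, the deposited estimated count scaled to library size with TMM, and those counts look already scaled by transcript length. A gene passed where edgeR's quasi-likelihood test gave a Benjamini-Hochberg adjusted p under 0.05 over all 16827 tested genes.

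The samples were bulk RNA sequencing libraries of mouse lung cells sorted as Acta2-dsRed+, Pdgfra-GFP+, that is, positive for red and green fluorescent reporters named after 2 genes. Acta2 encodes a contractile smooth muscle actin and Pdgfra a growth factor receptor of lung fibroblasts, and cells with both include the myofibroblasts that build alveolar walls. Whole lungs were dissociated and these cells collected by FACS at embryonic day E17.5 and, after birth, at P3, P7 and P10. Each of these 4 stages has 3 libraries. All groups share this genotype and differ in age. The labels give no strain or reporter construct and do not say whether a library came from 1 animal or from a pool. The p-values therefore measure the spread between these libraries, which may be technical. By its title the series concerns Hippo signalling as alveoli form. The stages run from before birth, when the lung holds fluid, to the formation of alveolar septa in air-breathing pups.

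HIF is a pair of proteins, an oxygen-regulated alpha subunit and the constant partner ARNT. When oxygen is plentiful, prolyl hydroxylases mark the alpha subunit, the VHL protein binds it and it is degraded, so that HIF activity is set largely at the protein level and not by the amount of alpha subunit mRNA. When oxygen is scarce, the pair binds a short DNA motif near its target genes, which include glucose transporters, most glycolytic enzymes and genes that restrain mitochondria. Glycolysis turns glucose into pyruvate, which is either reduced to lactate or sent to mitochondria.

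The core of the HIF motif is ACGTG, which reads CACGT on the other strand. Promoters of 300 bases, 250 before and 50 after a start site, were taken from RefSeq on GRCm38.p6. A promoter was listed for 34 of the 38 genes and not for Epas1, Bnip3l, Slc2a3 and Ndrg1. ACGTG or CACGT stood in a listed promoter of 20 of the 34 genes (58.8%), against 21.8% of 27025 genes with a listed promoter and 28.9% of the 10196 of them that were tested here. The variant GCGTG or CACGC stood in 22 of the 34 (64.7%), against 35.2% of all genes and 55.5% of tested genes. The 34 genes had 51 listed windows and the 27025 genes 32851, so more windows were searched per gene among the 34. By window, ACGTG or CACGT stood in 47.1% against 19.6%, and the variant in 52.9% against 32.4%. A match describes letters and does not show that HIF binds there. Not printed are the windows of Pdk1 and Egln3, which had the largest falls of the remaining classes at P10 against E17.5. The listed Pdk1 windows held 0 matches of ACGTG or CACGT, and the Egln3 window held 1. The 5 promoters that follow are those of Pfkp, which rose, and of the genes with the largest falls among HIF subunits, other HIF targets, transporters and glycolytic enzymes. They are given 5′ to 3′ on the gene's strand, and capitals mark ACGTG or CACGT.
Bnip3, chr7:138909457-138909756, minus strand: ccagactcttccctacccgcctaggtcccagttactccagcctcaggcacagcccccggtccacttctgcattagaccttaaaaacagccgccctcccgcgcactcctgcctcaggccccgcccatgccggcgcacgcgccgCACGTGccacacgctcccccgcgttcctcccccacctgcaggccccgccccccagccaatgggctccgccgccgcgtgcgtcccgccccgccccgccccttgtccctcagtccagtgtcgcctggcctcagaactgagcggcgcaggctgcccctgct
Slc2a1, chr4:119108495-119108794, plus strand: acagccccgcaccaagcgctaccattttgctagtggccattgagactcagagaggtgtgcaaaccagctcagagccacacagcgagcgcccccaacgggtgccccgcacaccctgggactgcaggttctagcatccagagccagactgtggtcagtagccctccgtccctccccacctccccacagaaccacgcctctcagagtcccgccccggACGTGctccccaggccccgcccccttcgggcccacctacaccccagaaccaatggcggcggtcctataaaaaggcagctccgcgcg
Hk2, chr6:82774405-82774704, minus strand: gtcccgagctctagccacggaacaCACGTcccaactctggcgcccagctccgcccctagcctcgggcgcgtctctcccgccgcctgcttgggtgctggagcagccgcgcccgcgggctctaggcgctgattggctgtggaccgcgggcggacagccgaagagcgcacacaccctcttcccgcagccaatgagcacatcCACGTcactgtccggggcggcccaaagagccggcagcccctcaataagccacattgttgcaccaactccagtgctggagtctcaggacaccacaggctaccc
Hif3a, chr7:17062378-17062677, minus strand: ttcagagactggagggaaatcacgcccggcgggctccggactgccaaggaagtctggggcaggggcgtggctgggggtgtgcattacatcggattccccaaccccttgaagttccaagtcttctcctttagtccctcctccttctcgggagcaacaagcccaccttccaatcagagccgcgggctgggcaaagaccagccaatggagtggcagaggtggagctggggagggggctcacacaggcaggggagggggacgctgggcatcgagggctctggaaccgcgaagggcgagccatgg
Pfkp, chr13:6648722-6649021, minus strand: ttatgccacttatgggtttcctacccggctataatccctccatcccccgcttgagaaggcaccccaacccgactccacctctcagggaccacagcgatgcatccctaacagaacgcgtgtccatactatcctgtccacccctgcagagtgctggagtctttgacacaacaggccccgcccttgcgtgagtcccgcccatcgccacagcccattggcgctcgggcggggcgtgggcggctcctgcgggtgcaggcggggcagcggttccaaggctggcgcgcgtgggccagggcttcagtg
The Bnip3 promoter held CACGTG, which reads the same on both strands and holds both forms overlapping. ACGTG was found once in the Slc2a1 promoter, and CACGT stood at 2 separate places in the Hk2 promoter. The windows of Hif3a and Pfkp, the members with the largest fall and the largest rise among those that passed at P3, held neither form. They did hold the variant GCGTG or CACGC, with 2 matches for Hif3a and 4 for Pfkp. Matches of this variant, which capitals do not mark, numbered 3 for Bnip3, 1 for Slc2a1 and 0 for Hk2.

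A library's estimated counts added up to 13328623 at least and 18740591 at most. Genes for 7SL and 7SK, small noncoding RNAs, held 20.0% to 46.3% of that sum, which is not a share of reads because the values look scaled by transcript length. Libraries of the same stage had rank correlations of 0.917 to 0.931, and libraries of different stages 0.885 to 0.928. Acta2 averaged 492 CPM in E17.5 cells, 1025 in P3 cells, 822 in P7 cells and 487 in P10 cells, and Pdgfra 346, 179, 191 and 221 CPM in the same order, so both reporter genes were present at all stages. The P10 libraries were not alike. Summed endothelial markers reached 9.20 CPM in P10 replicate 1, 53.6 in replicate 2 and 53.7 in replicate 3, and the 6 summed markers of the labelled cells reached 4647, 3261 and 3101 CPM in the same order. Summed alveolar epithelial markers reached 53.6, 192.3 and 142.1 CPM in that order, and summed airway markers 71.4, 206.8 and 253.6 CPM. The log2 fold changes of members are therefore also given without single P10 libraries where that ends or makes a call. For all tested genes, 613 were called at P10 against P7, but 22 without P10 replicate 2 and 25 without P10 replicate 3. The count was 790 without P10 replicate 1, and 55, 41 and 39 without P7 replicates 1, 2 and 3. The drop was therefore not limited to leaving out P10 libraries.

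Most of the hypoxia and glycolysis genes that passed at P3 or P10 against E17.5 were lower at the later stage. No stage between E17.5 and P3 was sampled, so a fall before birth and a fall after it cannot be told apart. At P3 against E17.5, 16 of the 37 tested members were lower and 2 were higher, whereas 12% of all 16827 tested genes were lower and 13.1% higher; Aldoc, an aldolase, was under the filter on low counts, with 0.0522 to 0.743 CPM. The median log2 fold change was -0.46 over the 37 members and -0.05 over all tested genes. Of the 16, 9 fell at least 2-fold: Hif3a, Slc2a1, Bnip3, Slc2a3, Hk2, Ndrg1, Pdk1, Eno2 and Ddit4. Those that rose were Pfkp and Egln1, each by less than 2-fold. In bulk samples such as these, fewer cells of a type and less RNA per cell cannot be told apart.

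At P7 against P3, edgeR called 0 members higher and 0 lower, beside 0.00594% of all tested genes. An unadjusted p under 0.05 was found for 11 members (29.7%), beside 14.3% of all tested genes. DESeq2 called 1 member higher and 5 lower there, beside 4.34% of tested genes, and limma-voom 1 higher and 0 lower, beside 0.107%. At P10 against P7, 1 member was lower (Hif3a) and 0 were higher, beside 2.25% of tested genes lower and 1.4% higher. In that comparison 9 members (24.3%) had an unadjusted p under 0.05, beside 20.2% of tested genes, and DESeq2 called 1 higher and 1 lower, beside 10.9%. At P10 against P3, 4 members were higher (Pfkp, Hk1, Arnt and Pfkfb3) and 7 lower (Hif3a, Egln3, Gapdh, Eno1, Pgk1, Pgam1 and Pkm), beside 7.9% and 9.4% of tested genes. At P10 against E17.5, 22 members were lower and 1 was higher (Pfkp), beside 9.5% lower, 8.79% higher and 18.3% in either direction among all tested genes. The median log2 fold change there was -0.50 over the members and 0.005 over all tested genes. Comparisons that name the same stage share its libraries.

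Across all 4 stages, 25 of the 37 members differed in 1 test of any change, beside 32.1% of all tested genes. Of the tested members, 20 had their highest stage mean in E17.5 cells, 10 in P3 cells, 1 in P7 cells and 6 in P10 cells. In the comparisons, 28 members passed at least once and 9 did not: Hif1a, Epas1, Vhl, Gpi1, Pfkfb4, Adm, Mxi1, Kdm3a and Slc16a3. Without P10 replicate 2 or P10 replicate 3, 13 and 11 members were lower at P10 than at E17.5, where 12.2% and 11.5% of all tested genes were then called in either direction. At P10 against P3, 3 and 2 members were then lower, beside 7.64% and 7.48% of tested genes called. Without P3 replicate 3, 3 were lower at P10 than at P3, beside 9.96% called.

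Scaling by plain library totals in place of TMM gave the median log2 fold change of all tested genes as 0.50 at P10 against E17.5 and 0.11 at P3 against E17.5. The lower members then numbered 8 and 9 in these comparisons, and 15.3% and 8.91% of tested genes were called in either direction. The calls of Hif3a, Slc2a1, Slc2a3, Bnip3, Ndrg1, Hk2, Eno2 and Pdk1 in both comparisons remained, as did that of Ddit4 at P3. Those of Aldoa, Arnt, Bnip3l, Egln1, Ldha, Pfkl, Pfkm, Pfkp and Tpi1 at P3 ended. At P10 against E17.5 the call of Pfkp remained, Epas1 (log2 fold change 1.35, adjusted p = 0.0270) and Hk1 (0.85, adjusted p = 0.0347) passed as higher, and the other calls ended. At P10 against P3 those of Hif3a, Pfkp, Hk1 and Pfkfb3 remained, and at P10 against P7 that of Hif3a ended (adjusted p = 0.0752). These adjusted p-values are from edgeR.

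**Figure D1:**
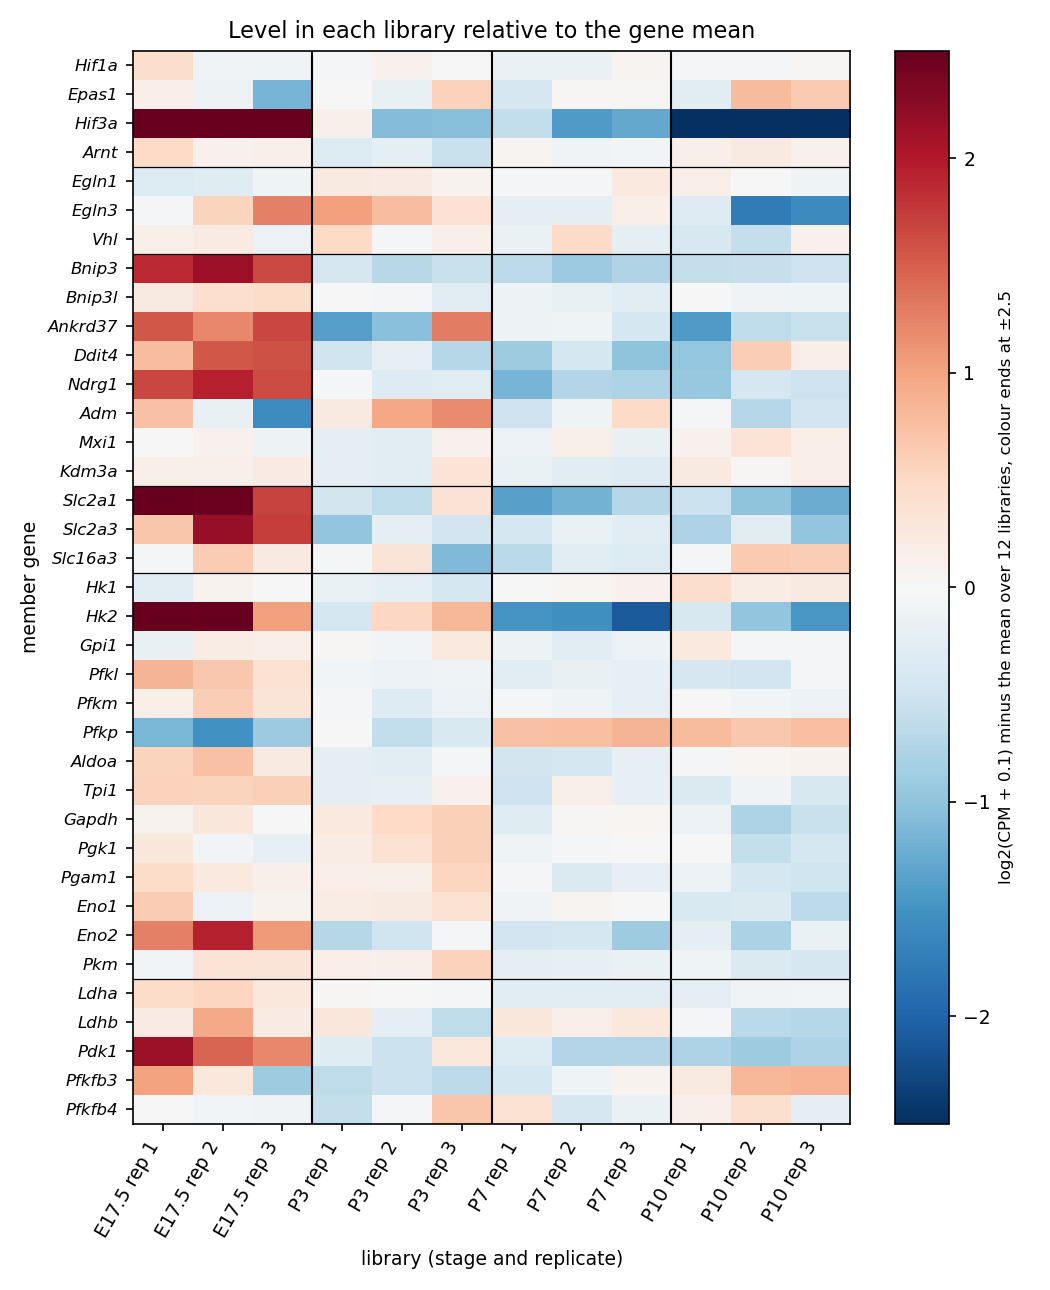
Heat map of the 37 tested members (rows, grouped by role) in the 12 libraries (columns). Colour gives log2(CPM + 0.1) minus the gene's mean over the libraries, with the colour scale ending at ±2.5. Hif3a, Bnip3, Ndrg1, Slc2a1, Hk2, Eno2 and Pdk1 are red in the E17.5 libraries, and Pfkp turns red in the P7 and P10 libraries.

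**Figure D2:**
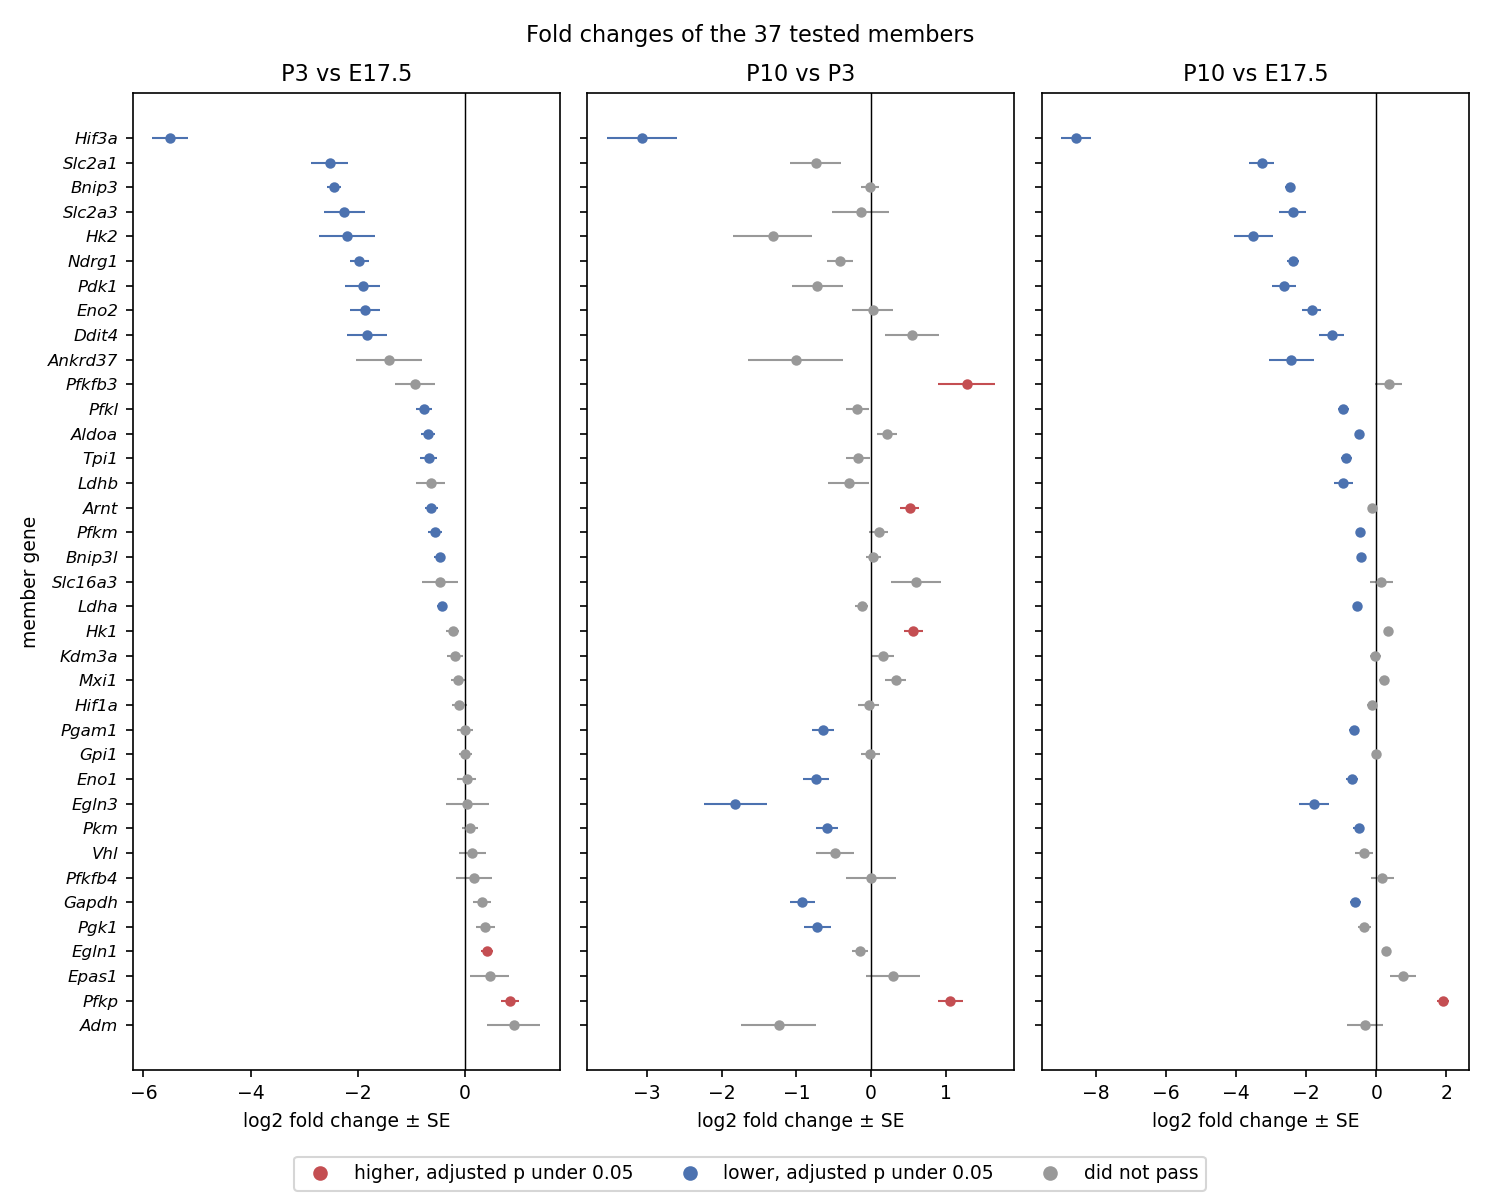
Log2 fold changes with standard errors of the 37 tested members (rows) at P3 against E17.5, P10 against P3 and P10 against E17.5, on separate axes. Blue points are the 16, 7 and 22 members that passed as lower, red points the 2, 4 and 1 that passed as higher, and grey points did not pass.

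Among the HIF subunits, Hif3a stood far lower at P3, P7 and P10 than at E17.5. The mRNA of the main oxygen-sensing subunits, Hif1a and Epas1, did not pass in any comparison scaled with TMM. Hif3a (chr7:17031507-17062427, minus strand) encodes an alpha subunit whose short forms can restrain the other alpha subunits. Its levels were 51.6, 56.3 and 53.98 CPM in the E17.5 libraries and 1.98, 0.798 and 0.811 CPM in those of P3. Hif3a had 1.15, 0.620 and 0.684 CPM in those of P7 and 0.119, 0.129 and 0.153 CPM in those of P10. Every library of a later stage lay far below every E17.5 library, and the P10 libraries lay below all others. Hif3a was 45.2-fold lower at P3 than at E17.5 (log2 fold change -5.50, SE 0.33, adjusted p = 8.10e-06). It was lower again at P10 than at P3 (log2 fold change -3.07, SE 0.47, adjusted p = 0.00268) and than at P7 (log2 fold change -2.55, SE 0.48, adjusted p = 0.0227). The P10 libraries rest on estimated counts of 2, 2 and 3, with 7 summed at P10 and 47 summed at P7. The ratio of summed levels was 0.163 at P10 over P7 (95% exact interval 0.0621 to 0.363) and 0.00251 at P10 over E17.5 (0.00101 to 0.00518), and 0.115 at P10 over P3 (0.0442 to 0.254); these intervals cover counting error and treat the deposited values as reads. The call at P10 against P7 ended when P7 replicate 1, P7 replicate 2, P7 replicate 3, P10 replicate 2 or P10 replicate 3 was left out (log2 fold changes between -2.69 and -2.20, adjusted p between 0.0543 and 0.0923).

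Hif1a (chr12:73901375-73947530, plus strand), the alpha subunit present in most tissues, stood at 54.4, 37.9 and 37.7 CPM in the E17.5 libraries and 38.5, 43.1 and 39.7 CPM in those of P3. Hif1a had 35.6, 35.6 and 42.1 CPM in those of P7 and 39.3, 38.8 and 40.8 CPM in those of P10. All stages overlapped. Neither P3 (log2 fold change -0.10, SE 0.14, adjusted p = 0.656) nor P10 (log2 fold change -0.13, SE 0.14, adjusted p = 0.580) passed against E17.5. Epas1 (chr17:86753700-86833410, plus strand), also called HIF-2 alpha and prominent in lung, stood at 17.7, 14.7 and 7.15 CPM in the E17.5 libraries and 16.1, 14.1 and 24.2 CPM in those of P3. Epas1 had 12.01, 16.4 and 16.5 CPM in those of P7 and 13.4, 27.9 and 25.5 CPM in those of P10. Its libraries overlapped between stages, and the highest came from P10 (log2 fold change 0.76, SE 0.36, adjusted p = 0.180 at P10 against E17.5). Epas1 is abundant in endothelium, and P10 replicate 1 was the low P10 library for Epas1 as for the summed endothelial markers. That library was also the lowest of P10 for the summed alveolar epithelial, airway, erythroid, immune and pericyte markers. The part of any of these cells in the Epas1 levels was not tested. Arnt (chr3:95434388-95497240, plus strand), the shared partner, stood at 60.4, 45.7 and 46.6 CPM in the E17.5 libraries and 33.6, 36.5 and 28.9 CPM in those of P3. Arnt had 44.5, 39.9 and 40.4 CPM in those of P7 and 46.2, 49.5 and 45.9 CPM in those of P10. Its 3 lowest libraries were those of P3, which lay below every library of E17.5 (log2 fold change -0.63, SE 0.12, adjusted p = 0.00447) and below every library of P10 (log2 fold change 0.52, SE 0.12, adjusted p = 0.0181). The second of these calls ended when P3 replicate 1, P3 replicate 3, P10 replicate 2 or P10 replicate 3 was left out (log2 fold changes between 0.43 and 0.54, adjusted p between 0.0504 and 0.0709).

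By summed CPM of Hif1a, Epas1 and Hif3a, Hif3a made up 49.4% ± 6.78 of alpha subunit mRNA in E17.5 cells, 2.04% ± 1.26 in P3 cells, 1.56% ± 0.683 in P7 cells and 0.216% ± 0.0195 in P10 cells (SD, n = 3). The sum itself was 110 ± 12.5 CPM in E17.5 cells, 59.8 ± 4.33 in P3 cells, 53.5 ± 5.31 in P7 cells and 62.04 ± 8.02 in P10 cells. Hif1a was the most abundant of the 3 at P3, P7 and P10, with 67.9%, 70.6% and 64.6% of the sum.

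**Figure D3:**
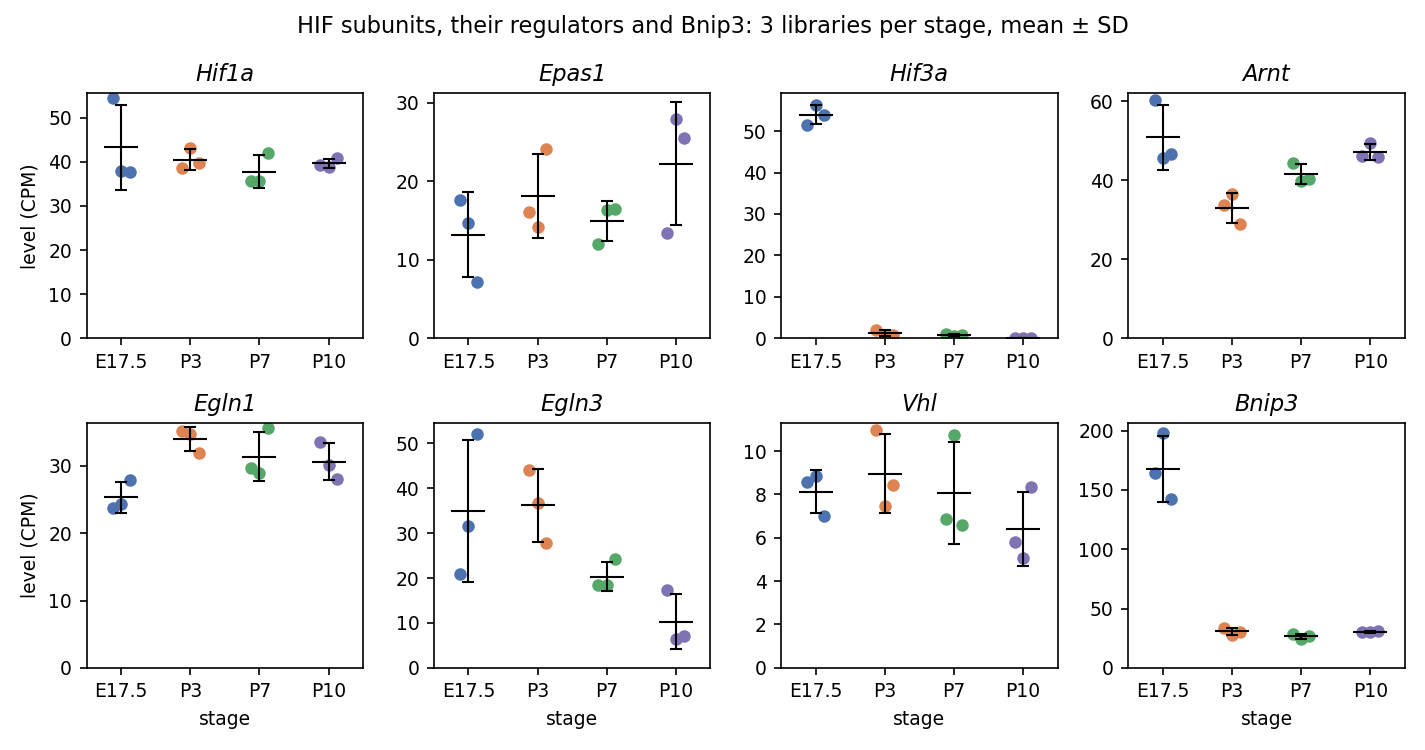
Level in CPM of the HIF subunits, their regulators and Bnip3 at each stage; points are single libraries (3 per stage), bars the mean ± SD, and each panel has its own axis from 0. Hif3a and Bnip3 are high in the E17.5 libraries and low in all later ones, whereas Hif1a overlaps between all stages.

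Of the regulators of HIF stability, Egln1 was slightly higher at P3 than at E17.5 and Egln3 was lower at P10. Egln1 (PHD2, chr8:124908587-124949324, minus strand), the main prolyl hydroxylase that marks HIF alpha for degradation, stood at 23.7, 24.3 and 27.96 CPM in the E17.5 libraries and 35.3, 34.7 and 31.95 CPM in those of P3. Egln1 had 29.7, 28.9 and 35.6 CPM in those of P7 and 33.5, 30.2 and 28.1 CPM in those of P10. All P3 libraries were above all E17.5 libraries (log2 fold change 0.42, SE 0.11, adjusted p = 0.0186), a call that ended when E17.5 replicate 1, E17.5 replicate 2 or P3 replicate 1 was left out (log2 fold changes between 0.38 and 0.41, adjusted p between 0.0600 and 0.0678). Egln3 (PHD3, chr12:54178981-54203860, minus strand), a hydroxylase that is itself a HIF target, stood at 20.998, 31.6 and 52.1 CPM in the E17.5 libraries and 44.1, 36.8 and 27.8 CPM in those of P3. Egln3 had 18.4, 18.4 and 24.1 CPM in those of P7 and 17.3, 6.34 and 7.12 CPM in those of P10. The E17.5 and P3 libraries overlapped, and the P10 libraries were below all others, with replicate 1 nearest to them. Egln3 was 3.53-fold lower at P10 than at P3 (log2 fold change -1.82, SE 0.42, adjusted p = 0.0177) and 3.41-fold lower than at E17.5 (log2 fold change -1.77, SE 0.42, adjusted p = 0.0169). The call against P3 ended when P3 replicate 1, P10 replicate 2 or P10 replicate 3 was left out (log2 fold changes between -1.66 and -1.57, adjusted p between 0.0571 and 0.0759), and the call against E17.5 when E17.5 replicate 3, P10 replicate 2 or P10 replicate 3 was left out (log2 fold changes between -1.56 and -1.36, adjusted p between 0.0537 and 0.0711). Against P7, where it did not pass with all libraries, Egln3 passed when P10 replicate 1 was left out (log2 fold change -1.62, adjusted p = 0.0397).

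Vhl (chr6:113623959-113631633, plus strand), the recognition subunit of the ligase that degrades HIF alpha, stood at 8.56, 8.86 and 6.99 CPM in the E17.5 libraries and 10.98, 7.46 and 8.44 CPM in those of P3. Vhl had 6.88, 10.8 and 6.57 CPM in those of P7 and 5.82, 5.05 and 8.34 CPM in those of P10. Its libraries overlapped between all stages and it did not pass in any comparison. The share of Egln3 in the summed CPM of Egln1 and Egln3 was 56.2% ± 9.07 in E17.5 cells, 51.2% ± 4.53 in P3 cells, 39.2% ± 1.07 in P7 cells and 23.9% ± 8.94 in P10 cells (SD, n = 3).

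Of the 8 other HIF targets, 4 fell at P3 against E17.5 and 5 at P10 against E17.5, with 0 higher in either. Of all tested genes, 12% and 9.5% were lower in these comparisons. None of the 8 passed at P7 against P3, P10 against P7 or P10 against P3, beside 0.00594%, 3.64% and 17.3% of all tested genes. There 1, 2 and 3 had an unadjusted p under 0.05, beside 14.26%, 20.24% and 32.12% of all tested genes. The median log2 fold change over the 8 was -0.94 at P3 against E17.5. Bnip3 (chr7:138890836-138909519, minus strand), a mitochondrial receptor that directs mitochondria to autophagy, stood at 164, 198 and 142 CPM in the E17.5 libraries and 33.8, 27.9 and 30.5 CPM in those of P3. Bnip3 had 28.8, 24.1 and 26.8 CPM in those of P7 and 29.9, 30.2 and 31.4 CPM in those of P10. The E17.5 libraries were all far above the rest, and the 9 later libraries lay close together. Bnip3 was 5.46-fold lower at P3 than at E17.5 (log2 fold change -2.45, SE 0.13, adjusted p = 8.10e-06), and it did not pass at P10 against P3 (log2 fold change -0.013, SE 0.13, adjusted p = 0.961). Its relative Bnip3l (chr14:66985239-67008877, minus strand), which removes mitochondria in maturing red cells, stood at 290.1, 329 and 338 CPM in the E17.5 libraries and 246, 243 and 202 CPM in those of P3. Bnip3l had 225, 218 and 207 CPM in those of P7 and 245, 231 and 229 CPM in those of P10. It also fell, with all P3 libraries below all E17.5 libraries (log2 fold change -0.47, SE 0.10, adjusted p = 0.00769). The fall at P10 against E17.5 (log2 fold change -0.44, SE 0.10, adjusted p = 0.0136) ended when E17.5 replicate 2, P10 replicate 2 or P10 replicate 3 was left out (log2 fold change -0.42 each time, adjusted p between 0.0505 and 0.0586), and with plain library totals the estimate was 0.06.

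Ndrg1 (chr15:66929318-66969640, minus strand), a stress-induced gene of growth arrest, stood at 34.997, 42.3 and 34.2 CPM in the E17.5 libraries and 10.8, 8.72 and 8.98 CPM in those of P3. Ndrg1 had 4.83, 6.54 and 6.42 CPM in those of P7 and 5.64, 8.15 and 7.63 CPM in those of P10. It was 3.91-fold lower at P3 than at E17.5 (log2 fold change -1.97, SE 0.18, adjusted p = 5.17e-05), with the E17.5 libraries above all others. Ddit4 (chr10:59949669-59951834, minus strand), also named REDD1, an inhibitor of mTORC1 signalling that low oxygen and glucocorticoids induce, stood at 16.6, 28.7 and 29.5 CPM in the E17.5 libraries and 6.89, 8.37 and 5.88 CPM in those of P3. Ddit4 had 5.23, 7.10 and 4.79 CPM in those of P7 and 4.93, 15.01 and 10.98 CPM in those of P10. All P3 libraries lay below all E17.5 libraries (log2 fold change -1.82, SE 0.37, adjusted p = 0.00522), and P10 replicate 1 was about level with P7 while P10 replicates 2 and 3 were higher. The Ddit4 call at P10 against E17.5 (log2 fold change -1.27, SE 0.36, adjusted p = 0.0334) ended when E17.5 replicate 2, E17.5 replicate 3, P3 replicate 1, P10 replicate 1 or P10 replicate 3 was left out (log2 fold changes between -1.32 and -0.95, adjusted p between 0.0511 and 0.0894). Ankrd37 (chr8:45996902-46005707, minus strand), a small ankyrin-repeat gene that HIF induces, stood at 5.37, 4.18 and 5.84 CPM in the E17.5 libraries and 0.614, 0.798 and 4.39 CPM in those of P3. Ankrd37 had 1.59, 1.63 and 1.26 CPM in those of P7 and 0.594, 1.10 and 1.17 CPM in those of P10. P3 replicate 3 lay with the E17.5 libraries and apart from the other P3 libraries. Ankrd37 did not pass at P3 against E17.5 with all libraries and passed when P3 replicate 3 was left out (log2 fold change -2.84, adjusted p = 0.00103). It was lower at P10 than at E17.5 (log2 fold change -2.42, SE 0.64, adjusted p = 0.0244), a call that ended when E17.5 replicate 1, E17.5 replicate 3, P10 replicate 1, P10 replicate 2 or P10 replicate 3 was left out (log2 fold changes between -2.59 and -2.18, adjusted p between 0.0529 and 0.0787). Lrp2bp, which overlaps Ankrd37 on the opposite strand, averaged 0.582 CPM at P10 and 0.563 CPM at E17.5.

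The other targets did not pass in any comparison. Kdm3a, a histone demethylase, had stage means between 20.6 and 27.3 CPM, and Mxi1, a MYC antagonist, between 15.6 and 19.6 CPM. Adm, which encodes the vasodilator adrenomedullin, had stage means between 7.11 and 16.8 CPM. Its E17.5 libraries ranged from 3.08 to 15.5 CPM, and it passed as higher at P3 against E17.5 when E17.5 replicate 1 was left out (log2 fold change 1.60, adjusted p = 0.0410) and as lower at P10 against P3 when E17.5 replicate 3 was left out (log2 fold change -1.26, adjusted p = 0.0375).

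Both glucose transporters were lower at P3 and at P10 than at E17.5, and the lactate transporter did not pass. Slc2a1 (GLUT1, chr4:119108711-119137983, plus strand), the basal glucose transporter, stood at 27.9, 24.2 and 14.2 CPM in the E17.5 libraries and 3.14, 2.79 and 5.61 CPM in those of P3. Slc2a1 had 1.64, 1.86 and 2.63 CPM in those of P7 and 2.97, 2.14 and 1.78 CPM in those of P10. Every E17.5 library was above every later one, and E17.5 replicate 3 was the lowest of its stage. Slc2a1 was 5.75-fold lower at P3 (log2 fold change -2.52, SE 0.35, adjusted p = 0.000626) and 9.62-fold lower at P10 than at E17.5 (log2 fold change -3.27, SE 0.36, adjusted p = 0.000150). Slc2a3 (GLUT3, chr6:122727809-122801640, minus strand), a high-affinity glucose transporter, stood at 3.94, 11.3 and 8.24 CPM in the E17.5 libraries and 1.16, 2.05 and 1.69 CPM in those of P3. Slc2a3 had 1.74, 2.14 and 1.95 CPM in those of P7 and 1.37, 1.94 and 1.17 CPM in those of P10. Its E17.5 libraries were also above all others (log2 fold change -2.25, SE 0.38, adjusted p = 0.00184 at P3 against E17.5). Slc16a3 (MCT4, chr11:120948480-120960868, plus strand), which exports lactate, stood at 8.15, 13.1 and 9.86 CPM in the E17.5 libraries and 8.18, 10.48 and 3.85 CPM in those of P3. Slc16a3 had 5.23, 6.99 and 6.63 CPM in those of P7 and 8.19, 13.3 and 12.8 CPM in those of P10, with overlap between most stages. The summed CPM of Slc2a1 and Slc2a3 was 29.96 ± 6.73 in E17.5 cells, 5.48 ± 1.60 in P3 cells, 3.99 ± 0.594 in P7 cells and 3.79 ± 0.737 in P10 cells (SD, n = 3).

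Slc2a1 and Bnip3l are also expressed in the red blood cell lineage. The 7 erythroid markers summed to between 31.8 and 53.7 CPM in the P3 libraries, against 117 and 180.2 CPM in the E17.5 libraries, and 4 of 5 tested ones were lower at P3. The 6 pericyte markers summed to between 54.8 and 60.3 CPM at P3, against 126 and 182 CPM at E17.5, with 2 of 6 lower (Cspg4 and Rgs5). The 6 airway markers summed to between 85.1 and 137 CPM at P3, against 14.95 and 25.9 CPM at E17.5, with 2 of 4 tested ones higher. The 9 immune markers summed to between 20.7 and 23.01 CPM at P3, against 10.2 and 12.3 CPM at E17.5, with 3 of 7 tested ones higher at P3 and 4 of 7 at P10 than at E17.5. Over the 7 tested immune markers the log2 fold changes at P3 against E17.5 ran from -0.33 to 6.28, with a median of 1.26. Ptprc, 1 of the 9 listed, averaged 0.159 CPM at P3 against 0.118 CPM at E17.5. The part of these cells in the changes described here was not tested.

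In upper glycolysis the isoforms of 2 steps moved apart: Hk2 fell and Hk1 rose later, and Pfkl and Pfkm fell while Pfkp rose. Hexokinases trap glucose in the cell. Hk2 (chr6:82725025-82774454, minus strand), the inducible hexokinase, stood at 32.6, 31.2 and 8.14 CPM in the E17.5 libraries and 2.86, 5.70 and 7.09 CPM in those of P3. Hk2 had 1.35, 1.30 and 0.841 CPM in those of P7 and 2.97, 1.94 and 1.37 CPM in those of P10. E17.5 replicates 1 and 2 were high, and E17.5 replicate 3 was just above the highest P3 library. Hk2 was 4.58-fold lower at P3 (log2 fold change -2.20, SE 0.52, adjusted p = 0.0114) and 11.4-fold lower at P10 than at E17.5 (log2 fold change -3.51, SE 0.55, adjusted p = 0.00161). The Hk2 call at P3 ended when edgeR was fitted to only the 6 libraries compared (adjusted p = 0.0597). Hk1 (chr10:62268855-62379908, minus strand), the widely expressed hexokinase, stood at 14.1, 18.1 and 17.3 CPM in the E17.5 libraries and 15.3, 14.5 and 12.6 CPM in those of P3. Hk1 had 17.2, 17.8 and 18.5 CPM in those of P7 and 23.1, 19.6 and 20.1 CPM in those of P10. Its P10 libraries lay above all P3 libraries (log2 fold change 0.57, SE 0.12, adjusted p = 0.0113). At P10 against P3, Hk2 passed as lower when E17.5 replicate 3 was left out (log2 fold change -1.35, adjusted p = 0.0328). Hk2 made up 55.1% ± 20.2 of the summed CPM of both in E17.5 cells, 26.7% ± 10.2 in P3 cells, 6.13% ± 1.56 in P7 cells and 8.93% ± 2.497 in P10 cells (SD, n = 3).

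Phosphofructokinase catalyses the committed step, and its subunits come from Pfkl, Pfkm and Pfkp. Pfkp (chr13:6579768-6648777, minus strand), the platelet-type subunit, stood at 8.02, 6.13 and 9.39 CPM in the E17.5 libraries and 17.53, 11.6 and 13.6 CPM in those of P3. Pfkp had 29.8, 30.03 and 32.2 CPM in those of P7 and 30.99, 28.4 and 30.04 CPM in those of P10. The E17.5 libraries were lowest, the P3 libraries lay between, and the P7 and P10 libraries were highest and overlapped. Pfkp was 1.81-fold higher at P3 than at E17.5 (log2 fold change 0.85, SE 0.17, adjusted p = 0.00477), 2.09-fold higher at P10 than at P3 (log2 fold change 1.06, SE 0.17, adjusted p = 0.00333) and 3.78-fold higher at P10 than at E17.5 (log2 fold change 1.92, SE 0.17, adjusted p = 4.17e-05). At P7 against P3 the estimate missed the threshold (log2 fold change 1.10, SE 0.17, adjusted p = 0.0643), and it passed when E17.5 replicate 1 was left out (log2 fold change 1.10, adjusted p = 0.0358). The annotated 3′ ends of Pfkp and Pitrm1 overlap on opposite strands, and the strand setting of the counting is not given in the sources used here. Pitrm1 averaged 17.9 CPM in E17.5 cells, 20.5 in P3 cells, 21.4 in P7 cells and 16.3 in P10 cells.

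Pfkl (chr10:77986947-78010083, minus strand), the liver-type subunit, stood at 18.1, 15.96 and 13.04 CPM in the E17.5 libraries and 9.55, 9.06 and 9.25 CPM in those of P3. Pfkl had 8.32, 8.85 and 8.73 CPM in those of P7 and 7.42, 7.18 and 9.86 CPM in those of P10, with all E17.5 libraries above all later ones (log2 fold change -0.76, SE 0.15, adjusted p = 0.00507 at P3 against E17.5). Pfkm (chr15:98092589-98132451, plus strand), the muscle-type subunit, stood at 15.2, 21.1 and 17.3 CPM in the E17.5 libraries and 13.2, 10.9 and 12.3 CPM in those of P3. Pfkm had 13.4, 12.7 and 11.9 CPM in those of P7 and 13.7, 13.005 and 12.4 CPM in those of P10, and its E17.5 libraries were likewise highest. It was lower at P3 than at E17.5 (log2 fold change -0.56, SE 0.13, adjusted p = 0.0107), a call that ended when P3 replicate 2 was left out (log2 fold change -0.46, adjusted p = 0.0603). Its call at P10 against E17.5 (log2 fold change -0.45, SE 0.13, adjusted p = 0.0342) ended when E17.5 replicate 2, E17.5 replicate 3, P7 replicate 2, P7 replicate 3, P10 replicate 1, P10 replicate 2 or P10 replicate 3 was left out (log2 fold changes between -0.50 and -0.32, adjusted p between 0.0511 and 0.126), and with plain library totals the estimate was 0.07. Pfkp made up 19.1% ± 4.74 of the summed CPM of the 3 subunits in E17.5 cells, 39.7% ± 3.49 in P3 cells, 58.98% ± 1.67 in P7 cells and 58.5% ± 1.04 in P10 cells, and 41.4 ± 1.76 CPM was the sum at E17.5 against 50.99 ± 2.08 CPM at P10 (SD, n = 3). Gpi1, which interconverts the sugar phosphates between these steps, did not pass, with stage means between 36.6 and 43.9 CPM.

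**Figure D4:**
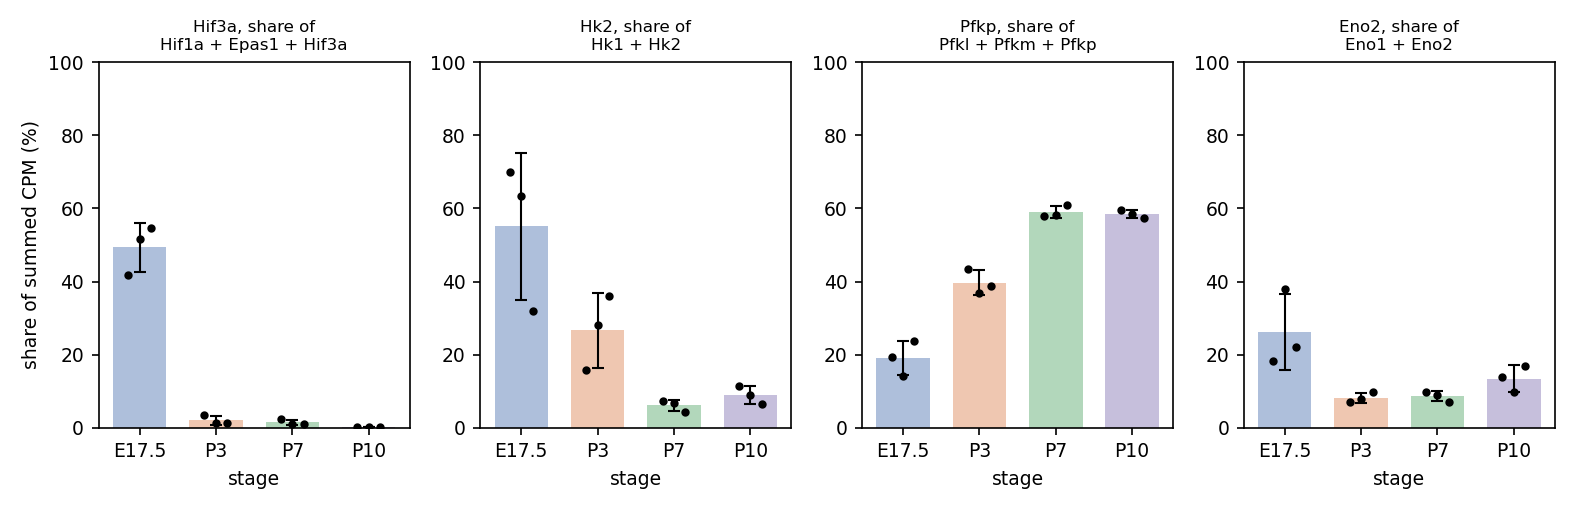
Share in percent of 1 gene in the summed CPM of its family at each stage; bars are means, error bars the SD and points the 3 libraries. Hif3a and Hk2 average 49.4% and 55.1% of their families in the E17.5 libraries and 0.216% and 8.93% at P10, whereas Pfkp holds 19.1% at E17.5 and 58.5% at P10.

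In lower glycolysis, Aldoa, Tpi1 and Eno2 fell at P3, whereas Gapdh, Pgk1, Pgam1, Eno1 and Pkm were lower at P10 than at P3 and did not pass at P3 against E17.5. Aldoa, the aldolase that splits the sugar, is the symbol of 2 annotated genes, at chr7:126795234-126800751 and chr7:126800790-126809108, both on the minus strand, which the table does not separate. Aldoa stood at 122, 138 and 96.1 CPM in the E17.5 libraries and 70.995, 68.6 and 81.1 CPM in those of P3. Aldoa had 59.8, 61.02 and 71.6 CPM in those of P7 and 81.2, 85.9 and 88.5 CPM in those of P10. The E17.5 libraries were highest (log2 fold change -0.69, SE 0.13, adjusted p = 0.00404 at P3 against E17.5). The later fall at P10 against E17.5 (log2 fold change -0.48, SE 0.13, adjusted p = 0.0308) ended when E17.5 replicate 1, E17.5 replicate 2, P10 replicate 1, P10 replicate 2 or P10 replicate 3 was left out (log2 fold changes between -0.50 and -0.36, adjusted p between 0.0718 and 0.1004), and with plain library totals the estimate was 0.07. Tpi1 (chr6:124810586-124814296, minus strand), triose phosphate isomerase, stood at 64.1, 63.1 and 65.4 CPM in the E17.5 libraries and 36.9, 37.4 and 46.5 CPM in those of P3. Tpi1 had 30.1, 47.4 and 37.6 CPM in those of P7 and 33.6, 40.6 and 32.6 CPM in those of P10. Its E17.5 libraries were close together and above all others (log2 fold change -0.67, SE 0.16, adjusted p = 0.0115 at P3 against E17.5), a call that ended when P3 replicate 2 was left out (log2 fold change -0.60, adjusted p = 0.0560). Eno2 (chr6:124760053-124769673, minus strand), an enolase best known from neurons, stood at 19.1, 30.1 and 16.5 CPM in the E17.5 libraries and 4.77, 5.53 and 7.70 CPM in those of P3. Eno2 had 5.63, 5.75 and 4.21 CPM in those of P7 and 6.71, 4.53 and 7.02 CPM in those of P10. All E17.5 libraries lay above all later ones, and Eno2 was 3.64-fold lower at P3 than at E17.5 (log2 fold change -1.86, SE 0.28, adjusted p = 0.000931).

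Gapdh (chr6:125161715-125166467, minus strand), which makes the NADH of glycolysis, stood at 129.8, 148 and 121.2 CPM in the E17.5 libraries and 144, 172 and 184 CPM in those of P3. Gapdh had 99.2, 125 and 126 CPM in those of P7 and 109.7, 71.4 and 83.1 CPM in those of P10. The P10 libraries lay below all P3 libraries (log2 fold change -0.92, SE 0.17, adjusted p = 0.00641). Pgk1 (chrX:106187100-106203699, plus strand), the first enzyme of the pathway to make ATP, stood at 33.5, 26.1 and 23.6 CPM in the E17.5 libraries and 31.4, 35.6 and 41.7 CPM in those of P3. Pgk1 had 25.4, 26.3 and 27.5 CPM in those of P7 and 27.7, 18.1 and 20.1 CPM in those of P10. It was lower at P10 than at P3 in all libraries (log2 fold change -0.72, SE 0.18, adjusted p = 0.0208), a call that ended when P3 replicate 3, P10 replicate 2 or P10 replicate 3 was left out (log2 fold changes between -0.66 and -0.60, adjusted p between 0.0743 and 0.0866). Pgam1 (chr19:41911923-41918660, plus strand), a phosphoglycerate mutase, stood at 64.2, 55.5 and 51.2 CPM in the E17.5 libraries and 51.97, 51.9 and 67.6 CPM in those of P3. Pgam1 had 44.8, 36.4 and 40.4 CPM in those of P7 and 42.3, 34.4 and 32.9 CPM in those of P10. P10 was below P3 (log2 fold change -0.64, SE 0.15, adjusted p = 0.0145) and below E17.5 (log2 fold change -0.64, SE 0.15, adjusted p = 0.0121) in all libraries. The call against P3 ended when P3 replicate 3, P10 replicate 2 or P10 replicate 3 was left out (log2 fold changes between -0.60 and -0.51, adjusted p between 0.0514 and 0.0704) and the call against E17.5 when P10 replicate 2 or P10 replicate 3 was left out (log2 fold changes between -0.60 and -0.57, adjusted p between 0.0521 and 0.0623).

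Eno1 (chr4:150236721-150248879, plus strand), the ubiquitous enolase, stood at 85.01, 49.2 and 58.2 CPM in the E17.5 libraries and 62.3, 63.97 and 71.3 CPM in those of P3. Eno1 had 51.4, 57.3 and 54.7 CPM in those of P7 and 41.9, 42.2 and 34.5 CPM in those of P10. It was lower at P10 than at P3 (log2 fold change -0.74, SE 0.17, adjusted p = 0.0176) and than at E17.5 (log2 fold change -0.70, SE 0.17, adjusted p = 0.0187), without overlap. These calls ended when P3 replicate 3 or P10 replicate 3 was left out (log2 fold changes between -0.68 and -0.65, adjusted p between 0.0589 and 0.0766) for P3 and when P10 replicate 3 was left out (log2 fold change -0.61, adjusted p = 0.0808) for E17.5. Pkm (chr9:59656368-59679375, plus strand), the pyruvate kinase, stood at 85.1, 112 and 112 CPM in the E17.5 libraries and 99.4, 97.1 and 133 CPM in those of P3. Pkm had 76.2, 77.6 and 79.4 CPM in those of P7 and 82.8, 69.4 and 66.2 CPM in those of P10. Its P10 libraries were below all P3 libraries (log2 fold change -0.59, SE 0.15, adjusted p = 0.0227), a call that ended when P3 replicate 3, P10 replicate 2 or P10 replicate 3 was left out (log2 fold changes between -0.56 and -0.44, adjusted p between 0.0742 and 0.0991). At P10 against E17.5, the call of Gapdh (log2 fold change -0.59, SE 0.17, adjusted p = 0.0330) ended when E17.5 replicate 1, E17.5 replicate 2, P3 replicate 2, P7 replicate 2, P7 replicate 3, P10 replicate 2 or P10 replicate 3 was left out (log2 fold changes between -0.61 and -0.46, adjusted p between 0.0501 and 0.124). That of Pkm (log2 fold change -0.50, SE 0.15, adjusted p = 0.0412) ended when E17.5 replicate 2, E17.5 replicate 3, P3 replicate 1, P7 replicate 1, P7 replicate 2, P7 replicate 3, P10 replicate 2 or P10 replicate 3 was left out (log2 fold changes between -0.50 and -0.43, adjusted p between 0.0526 and 0.155). With plain library totals these estimates were -0.08 for Gapdh and -0.0075 for Pkm, and the calls of all 5 enzymes at P10 against P3 ended, with log2 fold changes of -0.59 for Gapdh, -0.39 for Pgk1, -0.31 for Pgam1, -0.41 for Eno1 and -0.26 for Pkm.

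Reads of Gapdh and Eno1 can be split with near-identical copies. Transcripts that align to Gapdh over at least 200 bases at 95% identity or more come from 127 other genes, 96 of them in the table, which together averaged 39.9 CPM in E17.5 cells, 54.1 in P3 cells, 42.2 in P7 cells and 34.4 in P10 cells. The copies of Eno1 averaged 21.05, 31.98, 15.2 and 14.1 CPM in the same order, and those of Pgam1 6.82, 4.63, 2.28 and 1.52 CPM. The levels of these 3 enzymes are uncertain to that extent. Summed over the 15 enzymes, CPM was 715 ± 54.2 in E17.5 cells, 655 ± 72.5 in P3 cells, 531 ± 26.8 in P7 cells and 504 ± 43.4 in P10 cells (SD, n = 3). These sums rest on TMM scaling and were not recomputed with plain library totals. That scaling gave log2 fold changes at P10 against E17.5 of -0.08 for Gapdh, -0.0075 for Pkm and 0.07 for Aldoa, the enzymes with the highest levels.

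At the pyruvate branch, Ldha and Pdk1 were lower at P3 and at P10 than at E17.5. Ldha (chr7:46841475-46855627, plus strand), the lactate dehydrogenase subunit that favours lactate production, stood at 306, 323 and 269 CPM in the E17.5 libraries and 228, 222 and 217 CPM in those of P3. Ldha had 183, 186 and 185 CPM in those of P7 and 189, 209.8 and 212 CPM in those of P10. Every E17.5 library was above every P3 library, and the P7 libraries lay within a narrow range (log2 fold change -0.43, SE 0.091, adjusted p = 0.00651 at P3 and log2 fold change -0.56, SE 0.091, adjusted p = 0.00191 at P10, both against E17.5). With plain library totals the Ldha estimates were -0.25 at P3 and -0.02 at P10, and both calls ended. Ldhb (chr6:142490249-142507957, minus strand), the subunit that favours pyruvate, stood at 20.5, 34.4 and 20.5 CPM in the E17.5 libraries and 21.6, 15.3 and 11.4 CPM in those of P3. Ldhb had 21.7, 19.7 and 21.5 CPM in those of P7 and 17.3, 11.1 and 10.8 CPM in those of P10. It was lower at P10 than at E17.5 (log2 fold change -0.94, SE 0.28, adjusted p = 0.0394), a call that ended when E17.5 replicate 2, P3 replicate 2, P7 replicate 1, P7 replicate 2, P7 replicate 3, P10 replicate 2 or P10 replicate 3 was left out (log2 fold changes between -0.94 and -0.64, adjusted p between 0.0580 and 0.157). A near-identical copy, Gm5514, averaged 2.48 CPM in E17.5 cells, 0.682 in P3 cells, 4.03 in P7 cells and 0.733 in P10 cells. Pdk1 (chr2:71873224-71903858, plus strand), the kinase that closes the entry of pyruvate into mitochondria, stood at 6.12, 3.70 and 3.08 CPM in the E17.5 libraries and 1.02, 0.855 and 1.55 CPM in those of P3. Pdk1 had 0.997, 0.733 and 0.736 CPM in those of P7 and 0.712, 0.647 and 0.712 CPM in those of P10. It was low in all libraries, highest in those of E17.5, and 3.75-fold lower at P3 (log2 fold change -1.91, SE 0.33, adjusted p = 0.00218).

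Pfkfb3 (chr2:11471433-11554077, minus strand) makes the metabolite that drives phosphofructokinase, and stood at 48.1, 29.001 and 12.99 CPM in the E17.5 libraries and 15.5, 16.5 and 15.3 CPM in those of P3. Pfkfb3 had 17.7, 22.3 and 25.5 CPM in those of P7 and 28.02, 42.8 and 44.1 CPM in those of P10. Its E17.5 libraries were spread over almost the whole range, the P3 libraries lay close together, and P10 replicates 2 and 3 were above P10 replicate 1. It was higher at P10 than at P3 (log2 fold change 1.28, SE 0.38, adjusted p = 0.0436). That call ended when E17.5 replicate 2, P3 replicate 1, P3 replicate 2, P3 replicate 3, P7 replicate 1, P7 replicate 2, P7 replicate 3, P10 replicate 2 or P10 replicate 3 was left out (log2 fold changes between 1.17 and 1.29, adjusted p between 0.0589 and 0.128). At P3 against E17.5 it passed as lower when E17.5 replicate 3 was left out (log2 fold change -1.27, adjusted p = 0.00558). Pfkfb4, its relative, did not pass, with stage means between 3.54 and 3.997 CPM.

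Other genes of these pathways were counted over lists, to be read against the 25.1% of all tested genes called in either direction at P3 against E17.5, 18.3% at P10 against E17.5, 17.3% at P10 against P3 and 3.64% at P10 against P7. Of 8 other HIF pathway components, 2 were higher and 1 lower at P3 than at E17.5: Arnt2, an alternative partner subunit, at 6.26 ± 1.02 CPM at P3 against 2.95 ± 0.366 CPM at E17.5, Tceb2, which encodes elongin B of the VHL ligase, at 183 ± 9.29 against 125 ± 12.2 CPM, and Egln2, the other prolyl hydroxylase, at 21.5 ± 0.931 against 30.3 ± 4.47 CPM. At P10 against P3, 2 of the 8 were lower and 0 higher. Of 23 tested other genes known to respond to low oxygen, 11 were lower and 2 higher at P3 than at E17.5. They include Gbe1, the glycogen branching enzyme (log2 fold change -1.78, SE 0.14, adjusted p = 3.29e-05), P4ha1, a collagen prolyl hydroxylase (log2 fold change -0.76, SE 0.11, adjusted p = 0.000719), Zfp395 (log2 fold change -1.05, SE 0.16, adjusted p = 0.000970) and Higd1a, a mitochondrial protein (log2 fold change -0.65, SE 0.10, adjusted p = 0.00122). Vegfa, the vascular growth factor and a classical HIF target, stood at 131 ± 52.7 CPM in E17.5 cells, 134 ± 2.75 CPM in P3 cells, 139 ± 26.5 CPM in P7 cells and 138 ± 8.72 CPM in P10 cells and did not pass (log2 fold change 0.037, SE 0.24, adjusted p = 0.934 at P3 against E17.5). In this list 9 were lower and 0 higher at P10 against E17.5, 6 lower and 4 higher at P10 against P3, and 0 lower and 2 higher at P10 against P7. Without P10 replicate 2 or P10 replicate 3, 8 were lower at P10 against E17.5, 3 and 4 lower and 2 higher at P10 against P3, and 0 passed at P10 against P7. Without P3 replicate 3, 3 were lower and 2 higher at P10 against P3. With plain library totals 4 of this list were lower and 3 higher at P3 against E17.5.

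Of 8 tested other glycolysis genes, 2 were lower and 1 higher at P3 against E17.5, namely Pfkfb2 (log2 fold change -0.95), Slc2a4, the insulin-regulated transporter (-1.18), and Tigar (2.56), which averaged 1.33 CPM at P3 against 0.214 CPM at E17.5. At P10 against E17.5, 2 of this list were lower and 2 higher, and at P10 against P3 1 each way. Of 12 genes of pyruvate entry into mitochondria, 1 was lower (Pdk2, -0.89) and 2 were higher (Pdk3, 0.70, and Dld, 0.37) at P3 against E17.5. These were 25% of the 12, beside 25.1% of all tested genes. Pdk4 did not pass there (log2 fold change -0.72, SE 0.32, adjusted p = 0.121). At P10 against E17.5 and against P3, 0 of the 12 passed, beside 18.3% and 17.3% of all tested genes. An unadjusted p under 0.05 was found for 3 and 1 of them, beside 31.65% and 32.12% of all tested genes. The pyruvate dehydrogenase subunits Pdha1 and Pdhb had log2 fold changes of 0.13 and 0.009 at P3 against E17.5 and did not pass. In the pentose phosphate pathway, which makes NADPH and ribose, 3 of 7 genes were higher at P3 than at E17.5 (Tkt, 0.63, Pgls, 0.59, and Taldo1, 0.49) and 1 lower (Rpia, -1.04), and 2 were lower at P10 than at P3 and 2 at P10 than at E17.5. Of 3 tested genes of gluconeogenesis 1 was lower at P3 (Pcx, -1.42). In these 6 lists edgeR called 0 genes at P7 against P3, where 1 HIF component, 6 hypoxia-responsive genes, 1 other glycolysis gene, 1 gene of pyruvate entry, 3 pentose phosphate genes and 0 gluconeogenesis genes had an unadjusted p under 0.05, beside the 14.3% of all tested genes. Without P10 replicate 2 or P10 replicate 3, 0 of the HIF components and 0 of the other glycolysis genes passed at P10 against P3, and 2 of the pentose phosphate genes were lower there. Without P3 replicate 3, 1 HIF component and 0 other glycolysis genes passed in that comparison.

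Lists from outside the pathways were counted beside the same 25.1% of all tested genes at P3 against E17.5. Of 8 genes that glucocorticoids induce, 6 were lower and 0 higher at P3 than at E17.5, among them Zbtb16 (1.85 ± 1.12 CPM at P3 against 58.4 ± 5.11 CPM at E17.5) and Fkbp5 (14.9 ± 3.87 against 86.96 ± 4.60 CPM). Of 10 immediate early and heat shock genes, which cell dissociation can induce, 2 were lower and 0 higher at P3. All 10 DNA replication genes were higher at P3 than at E17.5 and all 10 were lower at P10 than at P3, also without any single P10 library. With plain library totals 8 of them were lower at P10 than at P3. Their part in the changes of the hypoxia and glycolysis genes was not tested.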

How the data were processed

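Gene values of 12 libraries, 3 for each of 4 stages, were used as the authors deposited them: whole-number estimated counts named scaled gene counts. The build is GRCm38 per the submitters' processing notes, and libraries came from SMART-seq v4 Plus and a stranded total RNA kit for low input per the labels' protocols; the aligner, the quantifier, its annotation and its strand setting were not stated there. In genes of short transcripts the lowest values are far above 1, so a value looks scaled by transcript length and is not a number of reads; levels in CPM can then be compared between genes, and a 0 gives no limit. Gene positions are from GENCODE mouse release 21, on GRCm38.

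Genes with too few counts were removed by filterByExpr, TMM scaling was applied and 1 quasi-likelihood model over the 12 libraries was fitted in edgeR 4.0.16 (limma 3.58.1, R 4.3.3), with 5 comparisons of stages and 1 test of any stage. P-values were adjusted by Benjamini-Hochberg over 16827 genes at 0.05. The code was tested on simulated data. TMM factors ran from 0.589 to 1.48. Results were recomputed with DESeq2 1.42.0 and limma-voom, under different scaling and filters, at a threshold of 0.01, with a replicate block and with each library left out. The members and lists were chosen with earlier results of these data known. Every HIF subunit, Egln3, Vhl, each transporter and each member that passed in a comparison is given in every library; of the other lists, up to 4 genes with the lowest p at P3 against E17.5 are named.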

Additional observations from a re-analysis of the deposited data

How the results depend on the processing

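Counts of members that passed as higher and lower were recomputed under each alternative. With all libraries and the main settings they were 2 and 16 at P3 against E17.5, and 0 and 0 at P7 against P3. They were 0 and 1 at P10 against P7, 4 and 7 at P10 against P3, and 1 and 22 at P10 against E17.5. In the test of any stage 25 passed. Of all tested genes, 25.1%, 0.00594%, 3.64%, 17.3%, 18.3% and 32.1% were called in these tests, in either direction. Plain library totals gave 0 and 9 at P3 against E17.5, 0 lower at P10 against P7 and 1 lower at P10 against P3. They gave 3 and 8 at P10 against E17.5, and 11 for any stage. Of all tested genes they called 8.91%, 0.0416%, 5.955%, 15.3% and 15.6% in these tests. They also turned the P10 against E17.5 log2 fold changes of Aldoa (0.0745), Bnip3l (0.0586) and Pfkm (0.0701), and gave the median log2 fold change over all tested genes as 0.11, 0.30, 0.06, 0.37 and 0.50 in the order above, where TMM gave -0.05, 0.0075, 0.01, 0.03 and 0.005. DESeq2 gave 1 and 5 at P7 against P3, 1 higher at P10 against P7 and 2 higher at P10 against E17.5. It called 4.34%, 10.9% and 24.6% of all tested genes there. Limma-voom gave 1 higher at P7 against P3 and 0 lower at P10 against P7, beside 0.107% and 5.13% of all tested genes. Upper-quartile scaling gave 2 higher at P10 against E17.5, beside 18.4% of all tested genes called. A filter of at least 10 CPM in 3 libraries gave 1 higher at P7 against P3 and 2 higher at P10 against E17.5. Of the genes tested under that filter, 0.315% and 26.3% were called there. Leaving out genes with transcripts under 300 nt, an alternative chosen after seeing the data, gave 1 higher at P7 against P3. Of the genes then tested, 0.155% were called there. With the 6 libraries compared alone, 13 were lower at P10 against E17.5, beside 10.9% of tested genes called. In that setting 14 members passed in either direction at P3 against E17.5, beside 18.4% of tested genes. The calls of Hk2, Bnip3l, Ldha and Pfkm at P3 then ended. At an adjusted p under 0.01, 1 was higher at P3 against E17.5 and 0 were lower at P10 against P7. At that threshold 1 and 2 passed at P10 against P3, 11 were lower at P10 against E17.5 and 15 passed for any stage. The shares of all tested genes called in these tests were 13.1%, 0.137%, 5.675%, 9.16% and 15.6%. The cause of these shifts was not tested, beyond the fewer libraries or the stricter threshold that 2 of them impose.

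With single libraries left out, 1 to 2 members were higher and 14 to 18 lower at P3 against E17.5. Of tested genes, 16.74% to 24.3% were then called there in either direction. At P7 against P3, 0 to 1 were higher, beside 0% to 0.4125% of tested genes. At P10 against P7, 0 to 1 were higher and 0 to 2 lower, beside 0.1248% to 4.458%. At P10 against P3, 2 to 4 were higher and 2 to 9 lower, beside 7.484% to 17.23%. At P10 against E17.5, 11 to 22 were lower, beside 11.54% to 17.57%. For any stage 20 to 25 passed, beside 23.24% to 30.55%. The Hif3a log2 fold change at P7 against P3 ranged from -0.87 to 0.0295, the last without P3 replicate 1, and that of Ankrd37 at P10 against P3 from -1.43 to 0.42, the last without P3 replicate 3. With the replicate number as a replicate block, counts were 2 and 16, 0 and 0, 0 and 1, 3 and 7, and 1 and 18 in the order above, with 21 for any stage. Of all tested genes, 21.9%, 0%, 1.84%, 14.3%, 15.4% and 26.1% were then called. Same-numbered libraries did not deviate together: 3 of 18 pairs correlated above 0.1 (r from -0.195 to 0.136), so the numbers were not taken as pairs. The block and these pairs use the replicate numbers of the sample titles. Column names of the deposited values carry other numbers for E17.5 replicate 3 and all P7 replicates, and pairing by those numbers was not tested. Depth limits Hif3a at P10 and the other members under about 1 CPM most.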
